A study of Mus musculus with 4 samples.

Results

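The Hox genes are the protein-coding genes of the 4 Hox clusters, taken from the deposited table by biotype and by a symbol of Hox, a cluster letter from a to d and a number. The rule found 39 genes among 55599 entries, 11 in HoxA, 10 in HoxB, 9 in HoxC and 9 in HoxD, and used no measured value. The cells were neurospheres, spheres of neural progenitors that grow unattached in a dish, at passage 3. They had been started from embryonic cortex of the mouse strain C57BL/6 at day 12.5 of development. There were 4 RNA libraries, 2 wild-type (WT) and 2 LncBAR-KO, the latter from cells lacking the long noncoding RNA LncBAR; both genotypes share strain, stage, tissue and culture. The labels do not say how LncBAR was removed, which sex the embryos were, or whether the 2 libraries of each genotype stand for different embryos or dishes. Each p-value therefore reflects only how far these libraries differ, and that spread may be technical. LncBAR itself was not analysed here.

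Hox genes encode homeodomain transcription factors that give cells their position along the head-to-tail axis. Genes of the same number in different clusters are paralogs, low numbers are switched on first and reach furthest forward, and the front limit of Hox expression lies in the hindbrain. The forebrain, from which the cortex forms, develops without Hox expression, and in such cells the clusters are typically held silent by Polycomb proteins, which mark their chromatin with methylated histone H3.

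The deposited counts contained almost no Hox RNA in either genotype. Of the 39 genes, 35 were listed at 0 in all 4 libraries and 4 had a count in any library. The 39 genes together had 2 counts in WT replicate 1, 0 in WT replicate 2, 8 in LncBAR-KO replicate 1 and 5 in LncBAR-KO replicate 2, in libraries of 17244057 to 18280445 counts. With exact 95% Poisson intervals, which cover counting error only, these sums correspond to 0.112 (0.0135 to 0.404), 0 (0 to 0.214), 0.460 (0.199 to 0.906) and 0.274 (0.0888 to 0.638) CPM (counts scaled to library size) in the same order. Because these are bulk samples, few cells with Hox RNA and little Hox RNA per cell cannot be told apart. No Hox gene had a count in every library and none reached a mean of 1 FPKM (fragments scaled to gene length and library size).

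**Figure D1:**
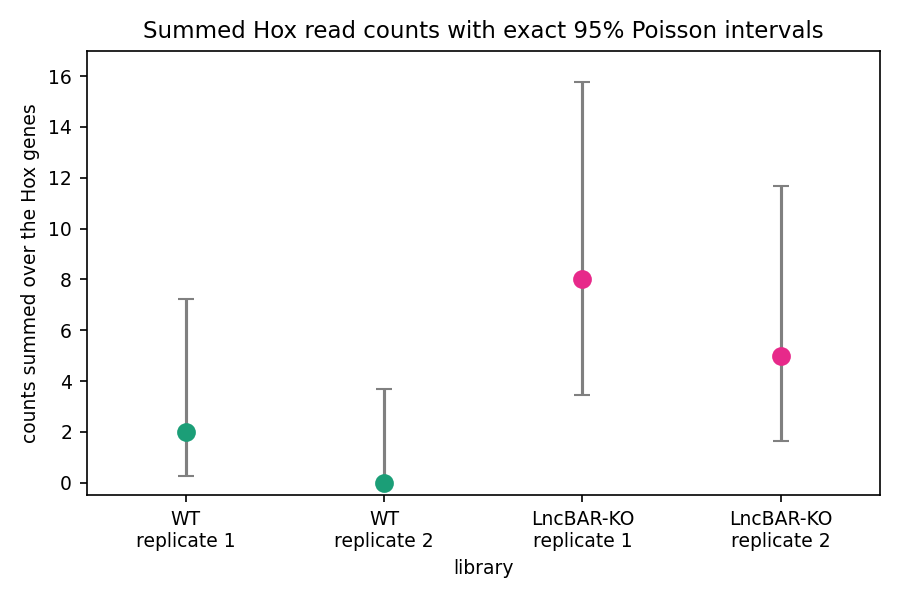
Deposited read counts summed over the 39 Hox genes in each library; points are single libraries, green for WT and pink for LncBAR-KO, and bars are exact 95% Poisson intervals, which cover counting error only. The WT libraries lie at 2 and 0 counts and the LncBAR-KO libraries at 8 and 5.

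Counts of 3 of these genes, Hoxd8, Hoxa9 and Hoxc6, each came from a single library. Hoxd8 (chromosome 2, 74704615 to 74707933) had 2 counts, both in LncBAR-KO replicate 2. Hoxa9 (chromosome 6, 52223100 to 52231089), known for its role in blood stem cells, had 1 count in LncBAR-KO replicate 1. Hoxc6 (chromosome 15, 102998257 to 103011881) had 1 count in WT replicate 1. These are numbers of reads at which a single read decides whether a gene is detected.

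By cluster, HoxB had 0 counts over the 4 libraries, HoxC 1 and HoxD 2. HoxB is the largest of the clusters, with a span of 173.9 kb on chromosome 11 between 96194316 and 96368256, and none of its 10 genes had a count. Ordered by paralog number, Hoxd8 had the only counts of number 8, Hoxc6 of number 6 and Hoxa9 of number 9. The 4 genes of number 13, which pattern the tail end, were listed at 0 in every cluster.

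A 0 in these libraries sets an upper limit and does not show absence. A limit of 3 counts was set for a count of 0, somewhat below the 3.69 counts at which the exact 95% Poisson interval of a 0 ends. Over the full exon length, the limit of 3 corresponds to between 0.0276 FPKM for the longest Hox gene and 0.197 FPKM for the shortest. Its median was 0.0681 FPKM over the 39 genes and 4 libraries. Shared exons bear on this limit, because the kit did not keep strand and several Hox genes overlap each other, read-through loci or antisense RNAs. All 39 genes lay at the same coordinates in GENCODE M21, where 16 shared exon bases with another gene. Every one kept stretches of its own, from 874 to 5495 exon bases with a median of 2322, or 88.1% of the 102881 exon bases in all. Hoxd3 had the smallest own share, 37.2% of its exon bases. If reads on shared exon bases were left uncounted, the limits of genes with shared exons are higher than those given.

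The table also lists at 0 some genes that most cells use. Ndufs3, a subunit of respiratory complex I, had 0 counts in all 4 libraries with 2090 own exon bases on chromosome 2. Mrps10, a protein of the mitochondrial ribosome, had 0 with 8079, and Men1, which encodes the Hox regulator menin, had 0 with 3835. Such cases were few: none of 40 proteasome subunits, 2 of 78 mitochondrial ribosomal proteins and 1 of 47 complex I genes were at 0 throughout. A gene is therefore described here as listed at 0, and whether any Hox gene has lost reads in the same way was not tested. These 3 genes and 3 families were chosen after their values were seen.

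Other genes inside the clusters were also mostly listed at 0. Between the outermost Hox genes of each cluster lay 46 further entries, 44 of them noncoding or pseudogenes, and 43 of the 46 were listed at 0 in all libraries. The 18 long noncoding RNAs among them included Hotair and Haglr, and 17 of the 18 were at 0. Hotairm1, in HoxA, was the exception, with 0 and 2 counts in WT replicates 1 and 2 and 4 and 0 in LncBAR-KO replicates 1 and 2. Its libraries overlapped between genotypes. A misc_RNA entry, Gm27477, had 1 count in LncBAR-KO replicate 2. The processed pseudogene Gm11539, which lies between Hoxb13 and Hoxb9, had 4, 7, 3 and 3 counts and was the only such entry with 10 or more. Reads were thus assigned within the HoxB span, although no HoxB gene had one. Whether the Gm11539 reads arose there or from a matching sequence elsewhere was not tested, so they do not show transcription within HoxB. Of 20 noncoding genes in a list drawn up for the clusters, 18 were listed at 0. In edgeR 0.106% of all fitted entries passed, and 0 of the 2 listed genes that were tested. These were Hotairm1, with a log2 fold change of 0.92 ± 1.82 (adjusted p = 0.926), and 2610035F20Rik, with -0.09 ± 0.21 (adjusted p = 0.946). Although listed, 2610035F20Rik is not among the entries within 1000 kb of any of the 4 clusters, so it does not describe them.

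The clusters also carry microRNA genes whose products are known to act on Hox messengers, and the 5p strands of 2 of these families are shown because their seeds, the capital letters at bases 2 to 8, pair the clusters as the paralogous genes do. The sequences are from RefSeq (GRCm38.p6).
miR-10a-5p: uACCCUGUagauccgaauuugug
miR-10b-5p: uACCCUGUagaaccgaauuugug
miR-196a-5p: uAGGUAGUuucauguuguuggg
miR-196b-5p: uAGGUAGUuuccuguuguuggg
Mir10a lies in HoxB upstream of Hoxb4 and Mir10b in HoxD within the span of Hoxd4, and their 5p products share the seed ACCCUGU. Mir196a-1 (HoxB), Mir196a-2 (HoxC) and Mir196b (HoxA) share the seed AGGUAGU. All of these entries had 0 counts. Libraries selected for polyadenylated RNA do not measure mature microRNAs, so this says nothing on their level.

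Around the clusters, expression returned at genes outside them. The nearest protein-coding gene with a mean of at least 1 FPKM lay 60.7 kb beyond Hoxd1, where Mtx2 (mitochondrial outer membrane import) had 588, 689, 733 and 699 counts, and 88.9 kb from Hoxd13 on the other side, where Lnpk (shaping of the endoplasmic reticulum) had 706, 644, 617 and 646. At HoxA these genes were Skap2, 143.0 kb away with 461, 420, 546 and 577 counts, and Hibadh, 285.3 kb away. At HoxC they were Smug1 at 116.4 kb and Calcoco1 at 198.9 kb, and at HoxB Atp5g1 at 118.6 kb and Snx11 at 399.3 kb. Each of the 8 flanking genes had reads in all 4 libraries, with Smug1 in LncBAR-KO replicate 1 the lowest at 398 counts. Counting along each chromosome, uninterrupted runs of protein-coding genes under 1 FPKM held 13 genes at HoxA, 13 at HoxB, 9 at HoxC and 11 at HoxD, of which 11, 10, 9 and 9 were Hox genes. Of 3827 such runs in the genome, with a median of 1 gene, 2.77% were as long as those of HoxA and HoxB or longer, 3.42% as that of HoxD and 4.49% as that of HoxC.

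**Figure D2:**
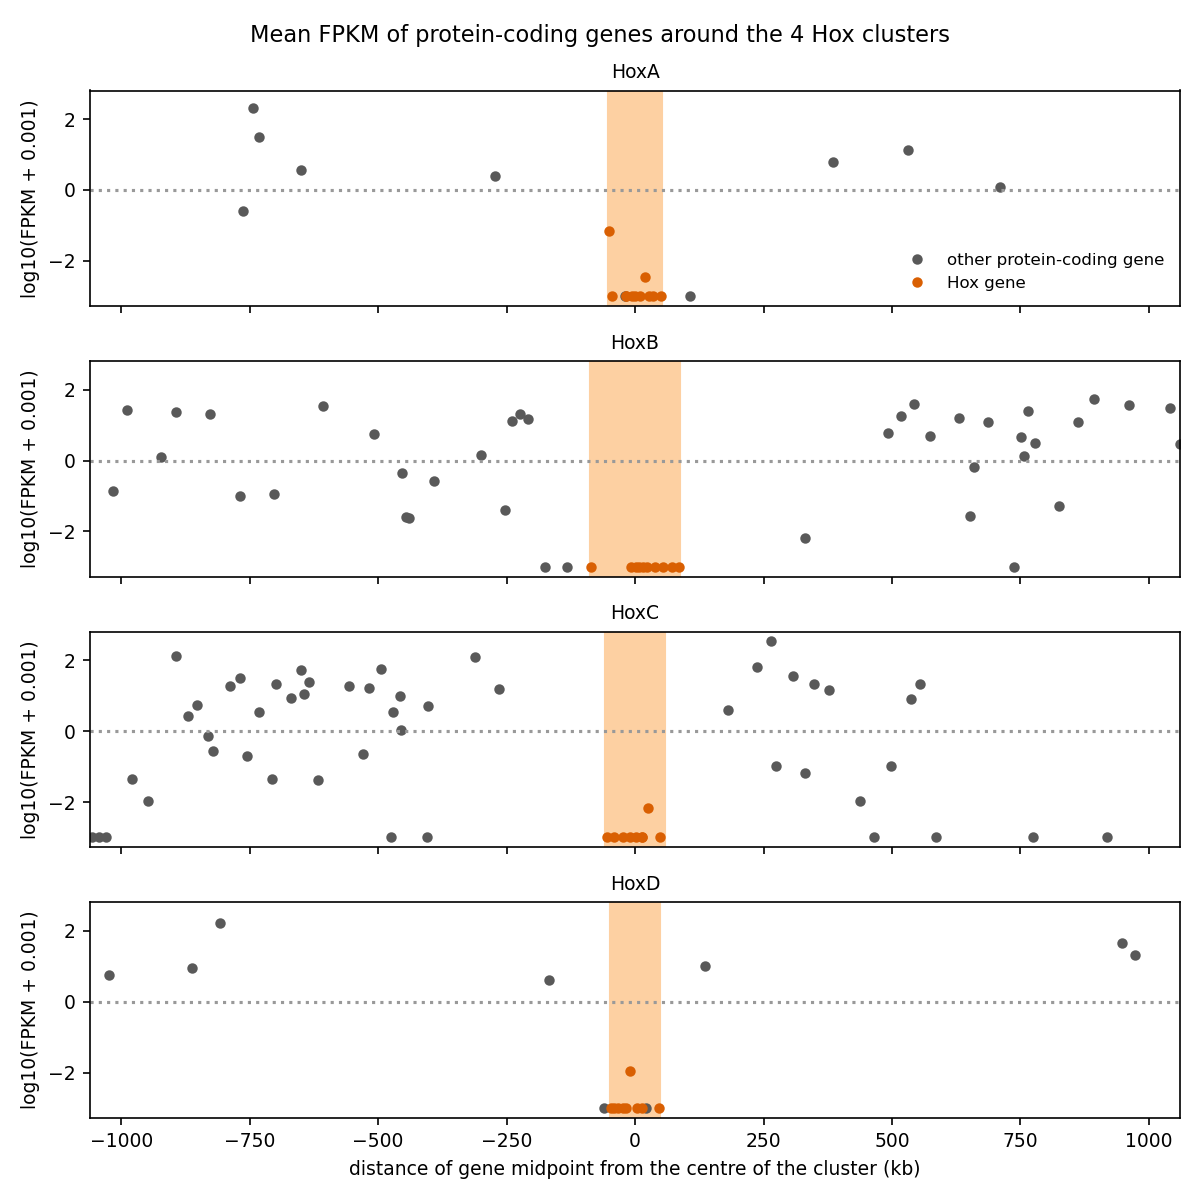
Mean FPKM over the 4 libraries, as log10(FPKM + 0.001), of protein-coding genes within 1000 kb of each Hox cluster, against the distance of the gene's midpoint from the centre of the cluster in kb; shading marks the span of the cluster and the dotted line 1 FPKM. All 39 Hox genes lie under the dotted line, and 35 of them lie at the floor of the plot.

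Low levels are common among homeobox genes, and the Hox genes lay at the low end. Of the 190 other protein-coding genes that the authors' table assigns to the homeobox family, 43.7% were listed at 0 in all libraries, against 89.7% of the Hox genes. A mean of at least 1 FPKM was reached by 32 of those 190 and by no Hox gene. The highest of them was Lhx2, a selector gene of the cortex, at 16.3 and 15.8 FPKM in WT and 14.1 and 14.9 FPKM in LncBAR-KO. These shares describe the table and were not tested.

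**Figure D3:**
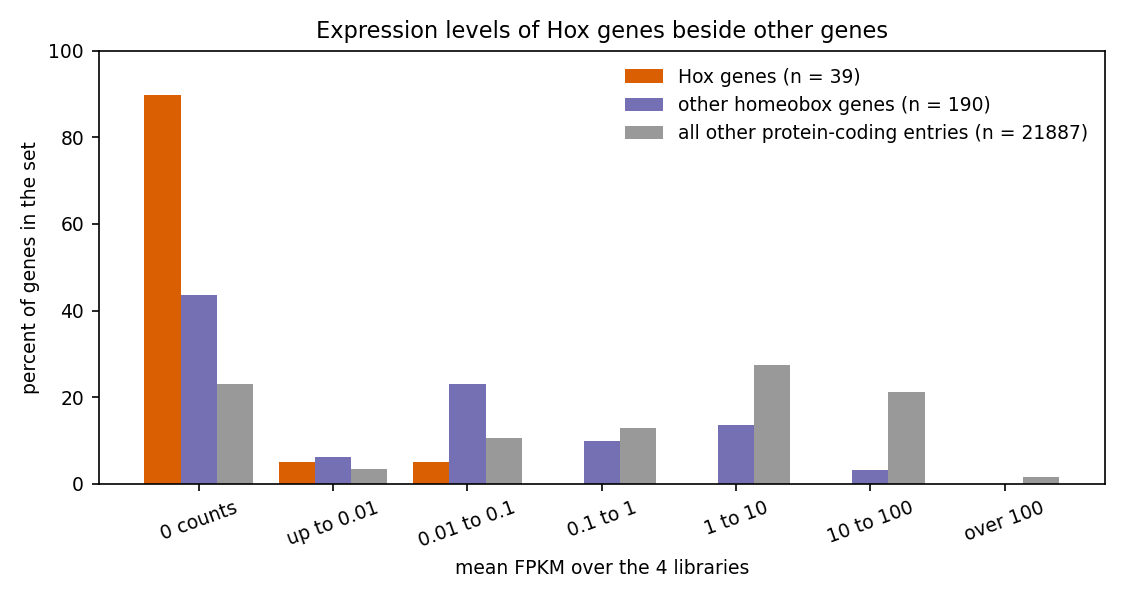
Percent of genes in each range of mean FPKM over the 4 libraries, for the 39 Hox genes, 190 other homeobox genes and 21887 other protein-coding entries; the first group of bars holds genes with 0 counts in all libraries. The Hox bars end below 0.1 FPKM, while 32 other homeobox genes reach 1 FPKM or more.

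Promoter sequence gave a further view of the same genes. Promoters rich in CpG, a cytosine followed by a guanine, belong mostly to genes active in many cell types, and they are also the promoters that Polycomb proteins can occupy. RefSeq promoters were matched for 22 of the 39 Hox genes, under the 80% needed, so any statement on the CpG content of Hox promoters as a set is void. For 17 the RefSeq start lay within 100 bases of the start in the deposited table. In the 250 bases upstream, 10 of these 17 had an observed to expected CpG ratio of at least 0.6, and all 10 genes were listed at 0. The other 7 had a lower ratio, and 6 of these were listed at 0. Among 5936 other protein-coding genes with a ratio of at least 0.6, 2.16% were listed at 0 and 83.9% had a mean of at least 1 FPKM. Of the 6107 other genes with a lower ratio, 34.4% were listed at 0. These shares are given side by side as a description of the matched genes only, and were not compared. The windows of highest ratio in HoxA, HoxB and HoxD are shown, followed by that of Hoxd8, the gene with counts whose window lay at the table's start; none was matched for HoxC at the table's start. They run 5′ to 3′ on the strand of the gene, and capitals mark each CG pair.
Hoxa5: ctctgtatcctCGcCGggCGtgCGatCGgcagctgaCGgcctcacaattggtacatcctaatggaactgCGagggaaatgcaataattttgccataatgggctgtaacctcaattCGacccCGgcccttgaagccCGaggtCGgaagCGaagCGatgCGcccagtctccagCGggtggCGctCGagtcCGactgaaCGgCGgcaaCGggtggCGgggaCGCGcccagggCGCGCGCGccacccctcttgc
Hoxb8: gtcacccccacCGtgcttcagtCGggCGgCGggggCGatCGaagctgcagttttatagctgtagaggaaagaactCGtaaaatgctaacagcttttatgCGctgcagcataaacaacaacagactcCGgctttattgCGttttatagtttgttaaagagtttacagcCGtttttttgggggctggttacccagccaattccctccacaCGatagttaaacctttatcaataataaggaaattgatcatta
Hoxd13: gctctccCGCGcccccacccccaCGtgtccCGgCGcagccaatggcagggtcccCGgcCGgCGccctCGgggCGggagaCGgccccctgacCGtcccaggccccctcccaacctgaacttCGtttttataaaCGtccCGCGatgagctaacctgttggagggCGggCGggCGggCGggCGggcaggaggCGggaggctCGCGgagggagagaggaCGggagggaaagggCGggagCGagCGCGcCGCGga
Hoxd8: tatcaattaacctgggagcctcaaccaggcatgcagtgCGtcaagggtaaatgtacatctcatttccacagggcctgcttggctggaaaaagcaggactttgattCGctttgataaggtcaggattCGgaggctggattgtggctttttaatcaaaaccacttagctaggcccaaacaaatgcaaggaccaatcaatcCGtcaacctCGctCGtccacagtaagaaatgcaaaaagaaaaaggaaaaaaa
The Hoxa5 window (chr6:52204588-52204837, minus strand, GRCm38.p6) holds 28 CG pairs and has a ratio of 1.11. The Hoxb8 window (chr11:96281655-96281904, plus strand) holds 12 with a ratio of 0.974, and the Hoxd13 window (chr2:74667975-74668224, plus strand) 31 with a ratio of 0.901. The window of Hoxd8 (chr2:74704365-74704614, plus strand), a gene with 2 counts, holds 6 with a ratio of 0.487.

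LncBAR-KO was then compared with WT. Over 29222 entries with at least 1 count, edgeR's quasi-likelihood test called 31 at an adjusted p of 0.05, or 0.106% of entries, 15 higher in LncBAR-KO (0.0513%) and 16 lower (0.0548%). Of the 39 Hox genes, 4 could be tested and 0 passed, with 0 at an unadjusted p under 0.05 in edgeR and 0 in DESeq2. These 4 entered the fit only because they had a count, and the other 35 had none to test. The edgeR log2 fold changes of Hoxd8 (3.17 ± 3.11), Hoxa9 (2.33 ± 3.28) and Hoxc6 (-2.32 ± 3.28) had adjusted p of 0.880 each. A fitted fold change against libraries at 0 depends on the small count that the fit adds, and is no measure of size.

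In counts, all 39 genes together had 13 reads in the LncBAR-KO libraries against 2 in WT. Scaled to library size, the ratio was 6.40, with an exact 95% counting interval of 1.45 to 58.4. This interval covers counting error alone and leaves out the spread between libraries. The summed Hox level was 0.0554 ± 0.0784 CPM in WT and 0.369 ± 0.126 in LncBAR-KO (SD, n = 2 each, TMM-scaled), and its libraries did not overlap, as in 15.3% of all single fitted entries in the same direction. With 2 libraries on each side, the smallest two-sided p of an exact permutation test is 0.333. The libraries of the genotypes also differed in sex-chromosome RNA: Xist, transcribed from the inactive X of female cells, had counts of 36766 and 31563 in the WT libraries against 7 and 4 in LncBAR-KO. The Y gene Ddx3y had 0 in both WT libraries against 1496 and 1847 counts in LncBAR-KO. Genotype and this difference cannot be told apart in any comparison here.

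Markers of position along the axis were checked against the label, cortex. Of 20 forebrain genes 8 had a mean of at least 1 FPKM. Nr2f1, which patterns the cortex, had 42.1 and 44.4 FPKM in WT and 43.4 and 38.2 FPKM in LncBAR-KO. The summed level of the 20 genes was 132 and 133 FPKM in WT and 126 and 116 FPKM in LncBAR-KO, lower in both LncBAR-KO libraries, as in 15.1% of all single fitted entries. Within the list, 2 anterior forebrain genes that are low in these cells were at 0 in LncBAR-KO replicate 1, the library with most Hox counts. Otx2 had counts of 79 and 49 in WT against 0 and 24 in LncBAR-KO, with an edgeR log2 fold change of -2.40 ± 0.51 (adjusted p = 0.0605). Six3 had counts of 88 and 34 in WT against 0 and 25 in LncBAR-KO, with -2.27 ± 0.55 (adjusted p = 0.177 in edgeR). Neither passed, both were named after their values were seen, and whether they bear on the Hox counts was not tested. The label was not met in every marker: Emx1, a dorsal cortex gene, was at 0.152 and 0.105 FPKM in WT and 0.0261 and 0.0254 FPKM in LncBAR-KO. Tbr1, Neurog2 and Fezf2, of the same list, had means of 0.175, 0.366 and 0.0278 FPKM. Fezf1 and Hesx1, genes of the early forebrain, were listed at 0, as was Nkx2-1, a ventral forebrain gene that the dorsal cortex lacks. Other ventral forebrain genes had counts: Gsx1 and Gsx2 had means of 2.45 and 1.98 FPKM, and Dlx1 and Dlx2 0.177 and 0.506 FPKM. None of 17 hindbrain and spinal cord genes reached 1 FPKM and 7 were listed at 0. Their summed level was 0.549 and 0.873 FPKM in WT and 0.540 and 0.584 FPKM in LncBAR-KO, with overlapping libraries, and Nkx6-2 had the highest mean, 0.458 FPKM. Of 16 midbrain and anterior hindbrain genes 2 reached 1 FPKM, Gbx2 and Pou3f1, with means of 1.73 and 1.98 FPKM. The summed level of the list was 4.34 and 5.38 FPKM in WT and 4.26 and 5.02 FPKM in LncBAR-KO, with overlapping libraries. Gbx2 and Pou3f1 are also active elsewhere in the brain, and which cells carried their RNA was not tested.

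Markers of other cell types were checked as well. Of 15 genes of blood, microglia and endothelium, 1 reached 1 FPKM, the lysosomal gene Cd68, and 4 were listed at 0, the hemoglobin genes Hbb-bs and Hba-a1, the myeloid integrin gene Itgam and the endothelial cadherin gene Cdh5. Their sums were 4.20 and 5.25 FPKM in WT and 5.84 and 5.33 FPKM in LncBAR-KO, higher in both LncBAR-KO libraries, as in 15.3% of all single fitted entries. Cd68 made up most of each sum, with 3.26 and 4.06 FPKM in WT and 4.63 and 4.07 FPKM in LncBAR-KO. The part of these cells in the Hox counts was not tested. Of 17 genes of mesenchyme, meninges and neural crest, 4 reached 1 FPKM and 3 were listed at 0, Twist2, Foxd3 and Tfap2b. The 4 were Sox10, Pdgfra, Acta2 and Prrx1, with means of 9.90, 7.04, 5.06 and 4.29 FPKM, and they made up most of the sum. Among the other genes with a count, means ran from 0.0144 FPKM (Dcn) to 0.881 FPKM (Foxc1). The collagen genes Col1a1, Col1a2 and Col3a1 were at 0.418, 0.106 and 0.0586 FPKM, and Twist1 was at 0.0344 FPKM. The sums were 31.5 and 27.5 FPKM in WT and 31.3 and 23.9 FPKM in LncBAR-KO, and overlapped between genotypes. Which cells carried this RNA, and their part in the Hox counts, was not tested.

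RNA of the genes whose proteins bind DNA together with Hox proteins was measured at far higher levels than Hox RNA. Pbx, Meis and Pknox proteins are homeodomain cofactors that also act independently of Hox proteins, and all 9 of their genes had a mean of at least 1 FPKM, with a median of 6.29 FPKM. Meis2 had 14.4 and 14.8 FPKM in WT and 14.1 and 13.3 FPKM in LncBAR-KO. Both LncBAR-KO libraries were below the WT libraries, as in 15.1% of all fitted entries. In edgeR 0 of the 9 cofactor genes passed in either direction, against 0.106% of all fitted entries. Meis2 had an edgeR log2 fold change of -0.09 ± 0.09 (adjusted p = 0.880). The median over the 9 genes was -0.09 and over all fitted entries 0.00396.

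**Figure D4:**
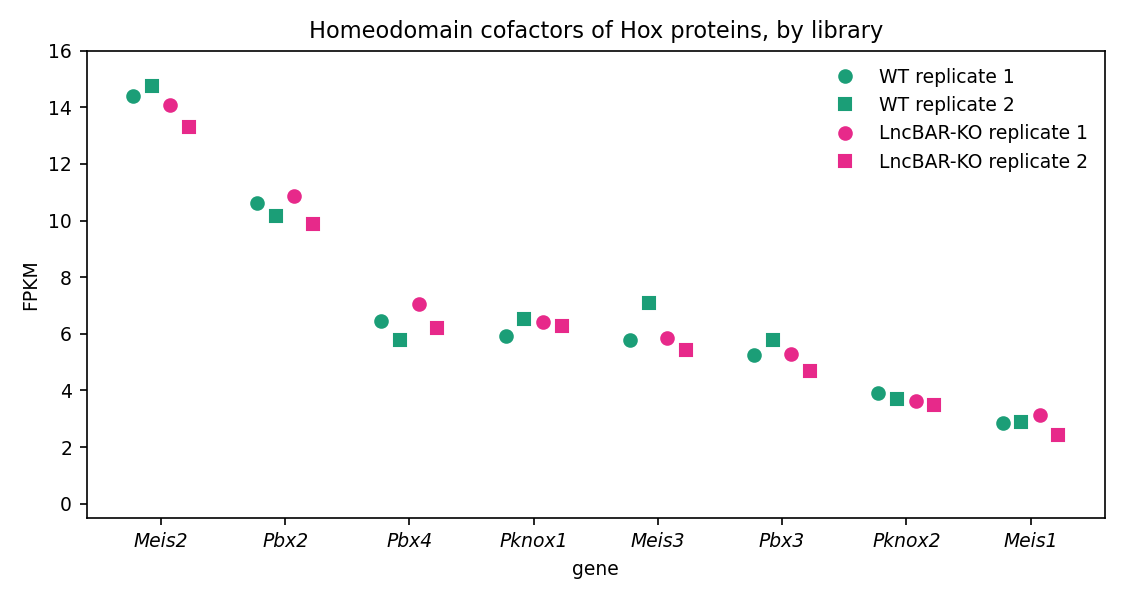
FPKM of 8 Pbx, Meis and Pknox genes in each library; points are single libraries, in green for WT and pink for LncBAR-KO. The genes run from 14.1 FPKM (mean, Meis2) to 2.82 FPKM (Meis1), and every point lies above 1 FPKM.

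Genes that make, sense and remove retinoic acid, the signal that opens the Hox clusters, were partly expressed. Of 18 such genes 9 had a mean of at least 1 FPKM. The receptor gene Rxrb had 13.8 and 12.9 FPKM in WT and 13.1 and 12.6 FPKM in LncBAR-KO, with libraries that overlapped between genotypes. The receptor gene Rara had 7.29, 4.82, 6.65 and 5.44 FPKM. The main enzyme gene of retinoic acid synthesis in the trunk, Aldh1a2, and the degrading enzyme gene Cyp26c1 were listed at 0. Another synthesis enzyme gene, Aldh1a3, was expressed, with 1.05 and 1.08 FPKM in WT and 1.29 and 1.69 FPKM in LncBAR-KO. Both LncBAR-KO libraries were above the WT libraries, as in 15.3% of all fitted entries. Its edgeR log2 fold change was 0.48 ± 0.22 (adjusted p = 0.880). Of 16 tested, 0 passed in edgeR, against 0.106% of all fitted entries. The median log2 fold change of the 16 was -0.05.

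Factors that switch Hox clusters on or off were largely expressed. Of 26, 23 had a mean of at least 1 FPKM, including the Polycomb genes Ezh2, Suz12, Eed and Bmi1, and 2 were listed at 0, Men1 and Egr2, which activates Hox genes in the hindbrain. Of 24 tested, 0 rose and 1 fell in edgeR, against 0.0513% and 0.0548% of all fitted entries. Their median log2 fold change was -0.07. The gene that fell was Kdm6a, an X-linked gene for an enzyme that removes the Polycomb mark from histone H3, with 12.4 and 11.5 FPKM in WT and 7.02 and 6.76 FPKM in LncBAR-KO (log2 fold change -0.79 ± 0.09, adjusted p = 1.39e-05 in edgeR). It did not pass in limma on log2 FPKM or in edgeR without WT replicate 1, WT replicate 2 or LncBAR-KO replicate 2. Kdm6a escapes X inactivation, so this difference cannot be told apart from that in Xist.

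The remaining relatives and neighbours showed no called difference. The ParaHox and Evx genes are sister genes of the Hox clusters. Of these 8 genes, 5 were listed at 0, among them Cdx1 and Cdx2, which activate Hox genes in the trunk, and Evx1 and Evx2, which adjoin HoxA and HoxD. Gsx1 and Gsx2, which act in the ventral forebrain, reached 1 FPKM. Gsx1 had counts of 82 and 77 in WT against 73 and 76 in LncBAR-KO, with an edgeR log2 fold change of -0.09 ± 0.23 (adjusted p = 0.946). Gsx2 had counts of 77 and 68 in WT against 48 and 41 in LncBAR-KO, with -0.70 ± 0.26 (adjusted p = 0.880). Of 27 tested genes flanking the clusters 0 passed in edgeR, against 0.106% of all fitted entries. The median log2 fold change of the 27 was 0.04. The 2 of highest FPKM, not of largest change, were Hnrnpa1, an RNA-binding protein gene beyond HoxC, with a log2 fold change of 0.08 ± 0.08 (adjusted p = 0.880 in edgeR), and Atp5g3, a subunit gene of ATP synthase beyond HoxD, with 0.11 ± 0.09 (adjusted p = 0.880).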

How the data were processed

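Polyadenylated RNA was sequenced in 150 bp pairs from a kit that does not keep strand, per the labels' protocols. The submitters' processing notes name cutadapt 1.16, TopHat2 2.1.1, Cufflinks 2.2.1 and mm10; the sources used here do not name the counting tool or the annotation release, or how multiply matching reads were treated. The authors deposited raw counts per gene, and FPKM values that they scaled by gene length and library size. The deposited signal per genotype, log2 fold change and p-value columns are the authors' own comparison. The members and all gene lists were chosen with earlier results of these data known.

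Counts were tested with edgeR 4.0.16 (R 4.3.3, TMM scaling, genotype only, quasi-likelihood, Benjamini-Hochberg). Because the members are nearly all at 0, no expression filter was used: every entry with at least 1 count entered, and SE is the log2 fold change divided by the square root of F. DESeq2 1.42.0, limma 3.58.1 on log2(FPKM + 1) and log2(FPKM + 0.1), filters, scalings, a replicate block and leaving out each library were alternatives. Results for some genes are not reported here. Named genes are members with 10 counts or called, and per list the genes called, otherwise the 2 of highest FPKM; others, such as flanking genes, members with fewer counts and markers, were named after their values were seen. On simulated data for KO against WT (27848 entries), 50% of 50 genes changed 1.5-fold, 86% of 50 changed 2-fold and 98% of 50 changed 3-fold were recovered, all at a mean of at least 50 counts, so this does not cover genes at Hox levels. No library was a copy of another: chi-square over its degrees of freedom was 6.20 to 13.7 for every pair. Reads carry no molecular identifiers, so counting intervals understate the error.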

Additional observations from a re-analysis of the deposited data

How the results depend on the processing

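Depth limits every statement on Hox genes: with 15 counts over 39 genes and 4 libraries, 1 read can change whether a gene is detected. The number of Hox genes with a count, 4, was 1 when at least 10 counts over the libraries were asked for, 0 when a count in every library was asked for and 0 at a mean of 1 FPKM. The number of Hox genes called was 0 in all 10 alternatives that tested any; filterByExpr and the filter at a mean of 1 FPKM left 0 Hox genes to test.

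The difference in the summed Hox level (LncBAR-KO minus WT), 0.313 CPM, was 0.311 with plain totals, 0.127 as a sum of FPKM, which is another unit, and 0.224 to 0.403 when 1 library was left out. Over all entries the 31 calls became 13 in DESeq2, 10 with filterByExpr, 9 at a mean of 1 FPKM, 1 and 3 in limma with pseudocounts of 1 and 0.1, and, leaving out 1 library, 8 without WT replicate 1, 7 without WT replicate 2, 17 without LncBAR-KO replicate 1 and 13 without LncBAR-KO replicate 2. The cause was not tested, and the lone library of a genotype is then assumed to vary like the others. In the gene lists the 1 call was 0 in limma with either pseudocount and 0 to 1 when 1 library was left out.

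Replicate numbers are shared by the genotypes, but the labels do not say that they pair libraries, and same-numbered deviations correlated at 0.166 over 12997 genes. With the number as a replicate block edgeR called 289 entries, 3 of them in the gene lists (Kdm6a, Kmt2a and Skap2), and 0 Hox genes.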
